A study of Mus musculus with 49 samples.

Results

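The expression of 40 genes of DNA repair and of the DNA damage checkpoint was followed in CD8+ T cells, the cytotoxic T cells of the mouse spleen, as they responded to IL-2. The genes were taken by symbol from the 23992 symbols of the deposited tables, with the longest RefSeq transcript of each, and all 40 were found and passed the low-count filter. They comprise 12 genes of homologous recombination and its strand-exchange factors, 7 genes of DNA end processing and the RecQ helicases, 8 genes of the Fanconi anemia pathway, 2 mismatch repair genes, 6 genes of damage checkpoint signalling, and 5 genes of base excision repair, translesion synthesis, and polymerase-driven end joining. The cells came from 2 mouse lines. In the *Stat5a* line, KI mice were homozygous for a *Stat5a* allele in which the tyrosine that is phosphorylated on activation was replaced by phenylalanine, and in the *Stat5b* line KI mice carried the same kind of change in both *Stat5b* alleles. WT mice of each line were littermates from matings of heterozygous mice. Both sexes were used, at 8 to 24 weeks of age, and the alleles, made in B6D2F1 zygotes, had been backcrossed to the C57BL/6J strain that the labels give. The alleles were present in every cell of the mouse and not in T cells alone. Purified cells were collected at 0 hr without IL-2 or after 4, 24, and 48 hr with IL-2 at 500 IU/ml, with no other stimulus in the labels. No library came from cells kept in culture without IL-2. A response to IL-2 is therefore a difference from 0 hr, in which IL-2 and time in culture cannot be told apart. Each group of 1 line, 1 genotype, and 1 time had 3 mRNA-seq libraries. No source states for these whether the 3 came from separate mice or from pools. For flow cytometry of CD8+ T cells the study combined several KI mice into each replicate. The p-values rest on the spread between libraries within groups, estimated over all groups together in 1 fit and not from the compared groups alone. That spread may therefore be technical.

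The broken or miscopied DNA of a dividing cell is repaired by several routes. Homologous recombination copies an intact sister strand and is used mainly after DNA has been replicated, the Fanconi anemia pathway opens crosslinks between the strands, mismatch repair corrects copying errors, base excision repair removes damaged or misplaced bases, and the checkpoint kinases hold the cell cycle while the work is done. A resting T cell does not copy its DNA, whereas IL-2, signalling through STAT5, drives CD8+ T cells to divide. DNA damage and the use of these routes were not measured here.

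Reads on the longest transcripts numbered 17369112 to 60200653 in the 47 libraries used, with a median of 41410666. The *Stat5a* KI library of replicate 3 at 4 hr held 1028515 such reads, 5.68% of its mapped reads, and was left out of every value. That group therefore had 2 libraries. Among the 4 hr libraries of WT cells of the *Stat5a* line, replicate 2 was the shallowest library kept, with 17369112 reads and 44.9% of its mapped reads on the longest transcripts. Its value lay outside those of the other replicates for 38 of the 40 genes, so counts that changed by over 1.5 times, or from 0, when it too was left out are given both ways. Levels are given as RPKM, the deposited reads per kilobase of transcript corrected for sequencing depth by all mapped reads, which allows comparison between genes. Differences are log2 fold changes from the counts, tested by the quasi-likelihood method of edgeR, with p-values adjusted as Benjamini and Hochberg did over all 15566 genes tested. A gene was called where the adjusted p did not exceed 0.05 and the fold change was 2 or more, and counts at the same adjusted p with no fold threshold are given as counts at any fold. Shares of all genes passing are those of the edgeR fit of the 47 libraries at the adjusted p. Counts at an unadjusted p, or without the shallowest library, have no such share beside them, and none is read as an excess. The 2 targeted genes kept their transcripts, as a change of 1 amino acid allows, so their levels do not check the genotype labels. *Stat5a* measured 19.0 ± 0.170 RPKM in WT and 21.2 ± 0.352 RPKM in KI cells of the *Stat5a* line at 48 hr, and *Stat5b* measured 21.3 ± 0.461 RPKM in WT and 31.1 ± 2.34 RPKM in KI cells of the *Stat5b* line (SD, n = 3). Markers of CD8+ T cells, summed over the 5 of 6 listed genes that were found, lay between 1030 and 1667 RPKM in the 12 libraries at 48 hr, with *Cd8b1* the most abundant, and no listed marker of these cells was at 0.

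In WT cells the repair and checkpoint genes were higher at 48 hr of IL-2 than before it in both lines. Of the 40 genes, 31 were called higher in the *Stat5a* line, where 14.3% of all genes tested were, and 32 in the *Stat5b* line, where 14.6% were. None was called lower in either line. At any fold, 39 and 38 genes rose, against 34.1% and 33.1% of all genes. The fitted log2 fold change was above 0 for 40 of 40 genes in both lines, with a median of 1.78 and 1.89, whereas the median of all genes tested was −0.12 and −0.13. The median level of the 40 genes, as the mean of the lines, was 1.54 RPKM at 0 hr and 9.05 RPKM at 48 hr. At 0 hr 14 genes lay under 1 RPKM and 2 lay over 10 RPKM, and at 48 hr 0 lay under 1 RPKM and 18 lay over 10 RPKM.

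**Figure D1:**
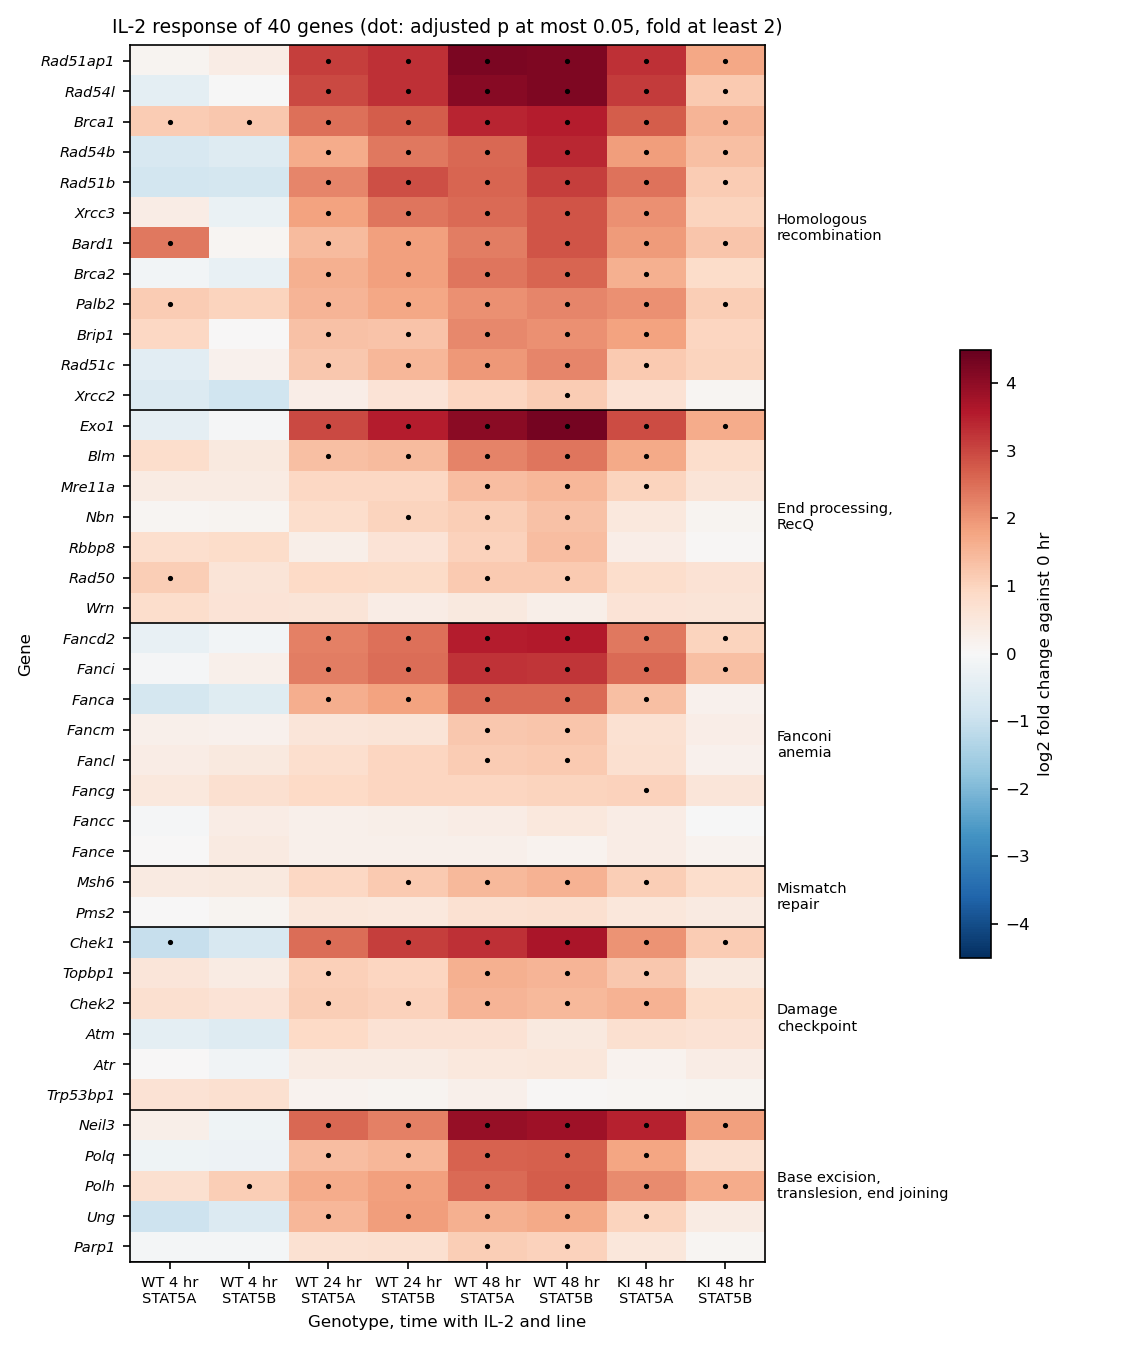
Log2 fold changes of the 40 genes (rows, grouped by role) against 0 hr of the same genotype, for WT cells at 4, 24, and 48 hr and KI cells at 48 hr of both lines (columns), with red for higher and blue for lower and a dot for each called gene. The dots cover 31 and 32 genes in the WT columns at 48 hr, 26 in the *Stat5a* KI column, and 13 in the *Stat5b* KI column.

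The genes of homologous recombination had the second largest median rise of the 6 groups in the *Stat5a* line and the largest in the *Stat5b* line, with 11 of 12 called in the *Stat5a* line and 12 of 12 in the *Stat5b* line and medians of 2.47 and 2.83. The largest rise in the *Stat5a* line was that of *Rad51ap1* (chr6:126923415-126939621, GRCm38), whose product stimulates strand exchange. *Rad51ap1* measured 0.785, 0.705, and 1.02 RPKM at 0 hr, 1.04, 0.310, and 1.42 at 4 hr, 7.48, 9.82, and 7.43 at 24 hr, and 17.4, 19.9, and 17.6 at 48 hr in WT cells of the *Stat5a* line. *Rad51ap1* in KI cells of that line measured 1.34, 0.719, and 1.02 RPKM at 0 hr, 2.53 and 1.31 at 4 hr, 5.15, 4.95, and 4.10 at 24 hr, and 13.3, 10.9, and 11.1 at 48 hr. *Rad51ap1* was lower in every KI library than in every WT library at 24 and 48 hr, with overlapping groups at 0 and 4 hr. From 0 to 48 hr the gene rose in WT cells by 4.23 (SE 0.253, adjusted p = 3.10e-17). *Rad51ap1* reached 0.640, 0.896, and 1.35 RPKM at 0 hr, 1.33, 1.20, and 1.55 at 4 hr, 9.32, 10.4, and 12.2 at 24 hr, and 18.9, 19.5, and 20.9 at 48 hr in WT cells of the *Stat5b* line. *Rad51ap1* in *Stat5b* KI cells measured 1.76, 2.04, and 1.94 RPKM at 0 hr, 2.06, 2.80, and 2.43 at 4 hr, 2.17, 3.24, and 2.46 at 24 hr, and 7.17, 9.16, and 5.77 at 48 hr. *Rad51ap1* was lower in every KI library than in every WT library at 24 and 48 hr and higher in every KI library than in every WT library at 0 and 4 hr. The rise in WT cells of this line was 4.19 (SE 0.254, adjusted p = 3.97e-17).

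*Rad54l* (chr4:116094261-116123700), a DNA translocase of strand exchange, followed closely. *Rad54l* measured 0.569, 0.710, and 0.727 RPKM at 0 hr, 0.556, 0.286, and 0.614 at 4 hr, 6.11, 6.62, and 5.15 at 24 hr, and 13.2, 14.7, and 12.3 at 48 hr in WT cells of the *Stat5a* line. *Rad54l* in KI cells of that line measured 1.10, 0.670, and 0.740 RPKM at 0 hr, 1.01 and 0.633 at 4 hr, 4.31, 3.61, and 2.85 at 24 hr, and 9.30, 8.86, and 7.99 at 48 hr. *Rad54l* was lower in every KI library than in every WT library at 24 and 48 hr and higher in every KI library than in every WT library at 4 hr, with overlapping groups at 0 hr. Its log2 fold change in WT cells at 48 hr was 4.11 (SE 0.204, adjusted p = 1.63e-19). *Rad54l* reached 0.705, 0.646, and 0.767 RPKM at 0 hr, 0.853, 0.765, and 0.757 at 4 hr, 6.81, 8.74, and 8.11 at 24 hr, and 14.6, 14.1, and 15.1 at 48 hr in WT cells of the *Stat5b* line. *Rad54l* in *Stat5b* KI cells measured 1.48, 1.90, and 1.75 RPKM at 0 hr, 1.54, 1.88, and 1.72 at 4 hr, 1.38, 2.37, and 1.71 at 24 hr, and 4.201, 5.78, and 3.19 at 48 hr. *Rad54l* was lower in every KI library than in every WT library at 24 and 48 hr and higher in every KI library than in every WT library at 0 and 4 hr. It rose by 4.19 (SE 0.206, adjusted p = 1.08e-19) in WT cells of the *Stat5b* line, while the KI cells began higher at 0 hr and ended lower at 48 hr. A share of 5.04% of the exon bases of *Rad54l* is also exonic in *Lrrc41* on the opposite strand.

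*Brca1*, whose product starts the recombination pathway at a break, rose from 0.796 ± 0.127 to 10.0 ± 0.768 RPKM in WT cells of the *Stat5a* line and from 0.816 ± 0.0470 to 10.6 ± 0.641 RPKM in those of the *Stat5b* line (SD, n = 3), with log2 fold changes of 3.44 and 3.52. Its partners *Bard1* (2.29 and 2.84), *Palb2* (2.06 and 2.21), which links BRCA1 to BRCA2, *Brca2* (2.39 and 2.63), a core gene of the pathway, and *Brip1* (2.18 and 2.05), a helicase bound by BRCA1, were called in both lines. The same held for *Rad54b* (2.57 and 3.39), a relative of *Rad54l*, and for the strand-exchange genes *Rad51b* (2.62 and 3.11), *Rad51c* (1.94 and 2.21), and *Xrcc3* (2.54 and 2.83). Of the exon bases of *Rad54b*, 92.0% are shared on the same strand with *Fsbp*, so the counts of these genes cannot be told apart. A related gene, *Xrcc2* (chr5:25689814-25705797), had the smallest rise of the group. *Xrcc2* measured 2.55, 2.24, and 2.15 RPKM at 0 hr, 1.26, 1.69, and 1.29 at 4 hr, 3.11, 3.004, and 3.37 at 24 hr, and 5.28, 5.64, and 4.81 at 48 hr in WT cells of the *Stat5a* line. *Xrcc2* in KI cells of that line measured 1.82, 1.94, and 2.09 RPKM at 0 hr, 1.41 and 1.18 at 4 hr, 2.75, 2.52, and 2.57 at 24 hr, and 3.69, 3.86, and 3.38 at 48 hr. *Xrcc2* was lower in every KI library than in every WT library at 0, 24, and 48 hr, with overlapping groups at 4 hr. In WT cells of this line the log2 fold change at 48 hr was 0.97 (SE 0.1595, adjusted p = 1.41e-06), under the fold threshold. *Xrcc2* reached 2.41, 2.42, and 2.28 RPKM at 0 hr, 1.53, 1.44, and 1.35 at 4 hr, 3.92, 3.99, and 4.35 at 24 hr, and 5.95, 5.99, and 5.74 at 48 hr in WT cells of the *Stat5b* line. *Xrcc2* in *Stat5b* KI cells measured 2.44, 1.95, and 2.78 RPKM at 0 hr, 1.61, 1.47, and 1.85 at 4 hr, 1.97, 2.21, and 2.13 at 24 hr, and 2.58, 3.37, and 2.69 at 48 hr. *Xrcc2* was lower in every KI library than in every WT library at 24 and 48 hr, with overlapping groups at 0 and 4 hr. In WT cells of the *Stat5b* line it was 1.14 (SE 0.1604, adjusted p = 7.73e-08), and in both lines every WT library at 4 hr was below every one at 0 hr.

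Of the 7 genes of end processing and the RecQ helicases, 6 were called higher in WT cells of both lines at 48 hr. *Exo1* (chr1:175880768-175911396) encodes an exonuclease of end resection and of mismatch repair. *Exo1* measured 0.349, 0.366, and 0.391 RPKM at 0 hr, 0.311, 0.164, and 0.346 at 4 hr, 2.86, 3.67, and 3.25 at 24 hr, and 6.95, 7.69, and 6.84 at 48 hr in WT cells of the *Stat5a* line. *Exo1* in KI cells of that line measured 0.654, 0.362, and 0.347 RPKM at 0 hr, 0.538 and 0.324 at 4 hr, 2.07, 1.83, and 1.77 at 24 hr, and 4.26, 4.14, and 3.84 at 48 hr. *Exo1* was lower in every KI library than in every WT library at 24 and 48 hr, with overlapping groups at 0 and 4 hr. Its rise in WT cells was 4.07 (SE 0.206, adjusted p = 2.79e-19), from the lowest starting level of the group. *Exo1* reached 0.345, 0.322, and 0.358 RPKM at 0 hr, 0.334, 0.324, and 0.460 at 4 hr, 3.97, 4.77, and 4.65 at 24 hr, and 7.74, 7.26, and 7.70 at 48 hr in WT cells of the *Stat5b* line. *Exo1* in *Stat5b* KI cells measured 0.493, 0.632, and 0.604 RPKM at 0 hr, 0.587, 0.862, and 0.754 at 4 hr, 0.705, 1.27, and 0.908 at 24 hr, and 2.18, 2.51, and 1.6 at 48 hr. *Exo1* was lower in every KI library than in every WT library at 24 and 48 hr and higher in every KI library than in every WT library at 0 and 4 hr. The log2 fold change of 4.29 (SE 0.210, adjusted p = 9.81e-20) in WT cells of the *Stat5b* line was the largest of the 40 genes there. The helicase gene *Blm* rose by 2.25 and 2.40. The MRN complex, which holds and trims broken ends, rose less, with 1.41 and 1.49 for its nuclease *Mre11a*, 1.16 and 1.16 for *Rad50*, and 1.12 and 1.32 for *Nbn*. *Rbbp8*, the resection factor that works with MRN, rose by 1.04 and 1.39.

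*Wrn* (chr8:33234372-33385543), the other RecQ member, is a helicase gene with a small rise at 48 hr. *Wrn* measured 6.09, 6.07, and 7.14 RPKM at 0 hr, 12.5, 7.78, and 12.8 at 4 hr, 10.5, 11.1, and 10.98 at 24 hr, and 10.7, 9.86, and 9.55 at 48 hr in WT cells of the *Stat5a* line. *Wrn* in KI cells of that line measured 6.50, 6.76, and 6.65 RPKM at 0 hr, 9.45 and 12.7 at 4 hr, 11.1, 10.0, and 9.84 at 24 hr, and 11.8, 12.4, and 12.1 at 48 hr. *Wrn* was higher in every KI library than in every WT library at 48 hr, with overlapping groups at 0, 4, and 24 hr. The mean WT level of *Wrn* was highest at 4 hr, and at 48 hr it was above 0 hr by 0.44 (SE 0.0755, adjusted p = 3.57e-06). *Wrn* reached 7.51, 7.34, and 7.10 RPKM at 0 hr, 13.0, 12.2, and 12.3 at 4 hr, 10.97, 10.1, and 10.8 at 24 hr, and 9.71, 9.42, and 10.7 at 48 hr in WT cells of the *Stat5b* line. *Wrn* in *Stat5b* KI cells measured 6.93, 6.69, and 7.43 RPKM at 0 hr, 12.9, 12.6, and 12.1 at 4 hr, 10.8, 10.5, and 10.4 at 24 hr, and 12.2, 12.5, and 11.4 at 48 hr. *Wrn* was higher in every KI library than in every WT library at 48 hr, with overlapping groups at 0, 4, and 24 hr. In WT cells of this line the mean level was again highest at 4 hr, and the 48 hr difference from 0 hr was 0.27 (SE 0.0755, adjusted p = 0.00213).

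Among the 8 Fanconi anemia genes, 5 were called higher in both lines at 48 hr. The pair that the core complex marks with ubiquitin, *Fancd2* and *Fanci*, rose the most, and *Fanci* rose by 3.24 and 3.23. *Fancd2* lies at chr6:113531640-113597020. *Fancd2* measured 0.470, 0.591, and 0.722 RPKM at 0 hr, 0.514, 0.330, and 0.557 at 4 hr, 2.99, 3.81, and 2.80 at 24 hr, and 7.65, 8.80, and 7.43 at 48 hr in WT cells of the *Stat5a* line. *Fancd2* in KI cells of that line measured 1.21, 0.738, and 0.680 RPKM at 0 hr, 0.918 and 0.467 at 4 hr, 2.03, 1.91, and 1.74 at 24 hr, and 5.68, 5.27, and 5.16 at 48 hr. *Fancd2* was lower in every KI library than in every WT library at 24 and 48 hr, with overlapping groups at 0 and 4 hr. It rose in WT cells by 3.53 (SE 0.211, adjusted p = 2.84e-17). *Fancd2* reached 0.590, 0.650, and 0.724 RPKM at 0 hr, 0.682, 0.634, and 0.739 at 4 hr, 3.37, 4.76, and 4.30 at 24 hr, and 8.37, 8.48, and 9.79 at 48 hr in WT cells of the *Stat5b* line. *Fancd2* in *Stat5b* KI cells measured 1.37, 1.64, and 1.24 RPKM at 0 hr, 1.22, 1.43, and 1.34 at 4 hr, 1.15, 1.82, and 1.31 at 24 hr, and 3.22, 4.12, and 2.39 at 48 hr. *Fancd2* was lower in every KI library than in every WT library at 24 and 48 hr and higher in every KI library than in every WT library at 0 and 4 hr. It rose by 3.59 (SE 0.212, adjusted p = 1.99e-17) in WT cells of the *Stat5b* line, where at 0 hr the mean level was 1.41 RPKM in KI and 0.655 RPKM in WT cells. The core complex was uneven. *Fanca* rose by 2.54 and 2.54, and the translocase gene *Fancm* (1.21 and 1.25) and the ubiquitin ligase gene *Fancl* (1.13 and 1.17) were called as well. *Fancg* (0.97 and 0.99) and *Fancc* (0.34 and 0.46) passed at any fold only. Exons on the opposite strand overlap those of *Fancl* (*Vrk2*, 21.7% of its exon bases), *Fanca* (*Zfp276*, 17.1%), *Fanci* (*Polg*, 14.4%), and *Fancc* (*Aopep*, 2.40%), and no source states whether strand was used in counting.

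*Fance* (chr17:28313530-28326574), which joins the core complex to its substrate, had the smallest difference of the group. *Fance* measured 4.15, 5.25, and 5.28 RPKM at 0 hr, 6.87, 1.63, and 7.10 at 4 hr, 6.39, 6.03, and 6.92 at 24 hr, and 6.35, 6.50, and 7.24 at 48 hr in WT cells of the *Stat5a* line. *Fance* in KI cells of that line measured 5.19, 4.46, and 4.35 RPKM at 0 hr, 7.86 and 7.67 at 4 hr, 7.26, 6.92, and 6.62 at 24 hr, and 7.12, 6.85, and 6.86 at 48 hr. *Fance* was higher in every KI library than in every WT library at 4 hr, with overlapping groups at 0, 24, and 48 hr. The WT difference at 48 hr was 0.24 (95% interval −0.07 to 0.56, adjusted p = 0.168). Without the library of 17369112 reads, which is not in this comparison, all 40 genes passed as higher at any fold, *Fance* among them. *Fance* reached 5.05, 5.06, and 5.48 RPKM at 0 hr, 7.71, 7.43, and 8.10 at 4 hr, 6.62, 7.30, and 6.81 at 24 hr, and 6.42, 6.56, and 6.51 at 48 hr in WT cells of the *Stat5b* line. *Fance* in *Stat5b* KI cells measured 5.01, 5.85, and 4.87 RPKM at 0 hr, 8.32, 8.09, and 7.16 at 4 hr, 6.36, 6.91, and 7.20 at 24 hr, and 6.95, 7.05, and 6.18 at 48 hr. *Fance* values of KI and WT cells overlapped at all 4 times. The corresponding WT difference was 0.15 (95% interval −0.17 to 0.46, adjusted p = 0.418), and the WT level was highest at 4 hr. The library of 17369112 reads stands apart in this gene, where it gave 1.63 RPKM, the lowest of the 3 WT values at 4 hr in the *Stat5a* line.

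The mismatch repair genes started from higher levels. *Msh6* (chr17:87975050-87990892), whose product recognises mismatches, was called in both lines. *Msh6* measured 10.6, 10.1, and 9.96 RPKM at 0 hr, 15.4, 10.6, and 13.8 at 4 hr, 22.3, 22.2, and 21.3 at 24 hr, and 33.6, 33.2, and 30.0 at 48 hr in WT cells of the *Stat5a* line. *Msh6* in KI cells of that line measured 11.4, 10.4, and 11.6 RPKM at 0 hr, 16.1 and 16.4 at 4 hr, 20.9, 21.3, and 20.3 at 24 hr, and 27.8, 28.9, and 28.5 at 48 hr. *Msh6* was lower in every KI library than in every WT library at 24 and 48 hr and higher in every KI library than in every WT library at 4 hr, with overlapping groups at 0 hr. It rose in WT cells by 1.45 (SE 0.0724, adjusted p = 1.79e-19). *Msh6* reached 9.91, 9.50, and 9.65 RPKM at 0 hr, 15.6, 14.5, and 14.7 at 4 hr, 24.5, 25.5, and 25.6 at 24 hr, and 32.0, 31.5, and 34.3 at 48 hr in WT cells of the *Stat5b* line. *Msh6* in *Stat5b* KI cells measured 11.2, 10.8, and 10.2 RPKM at 0 hr, 16.2, 18, and 15.5 at 4 hr, 15.9, 17.8, and 16.1 at 24 hr, and 22.1, 23.5, and 18.4 at 48 hr. *Msh6* was lower in every KI library than in every WT library at 24 and 48 hr and higher in every KI library than in every WT library at 0 hr, with overlapping groups at 4 hr. It rose in WT cells by 1.57 (SE 0.0728, adjusted p = 2.05e-20) in this line. *Pms2* (chr5:143909901-143972745), which acts after a mismatch is recognised, passed at any fold only. *Pms2* measured 5.97, 5.93, and 6.05 RPKM at 0 hr, 7.45, 3.56, and 7.16 at 4 hr, 9.88, 9.43, and 9.30 at 24 hr, and 11.1, 11.7, and 10.7 at 48 hr in WT cells of the *Stat5a* line. *Pms2* in KI cells of that line measured 6.58, 5.63, and 6.25 RPKM at 0 hr, 6.39 and 7.52 at 4 hr, 9.15, 9.30, and 8.46 at 24 hr, and 10.3, 10.4, and 10.2 at 48 hr. *Pms2* was lower in every KI library than in every WT library at 48 hr, with overlapping groups at 0, 4, and 24 hr. The rise in WT cells was 0.69 (SE 0.0706, adjusted p = 5.55e-11). *Pms2* reached 6.24, 6.31, and 6.26 RPKM at 0 hr, 7.67, 7.77, and 7.63 at 4 hr, 9.78, 9.99, and 10.1 at 24 hr, and 11.7, 11.3, and 11.6 at 48 hr in WT cells of the *Stat5b* line. *Pms2* in *Stat5b* KI cells measured 5.62, 5.87, and 5.89 RPKM at 0 hr, 7.67, 6.91, and 7.16 at 4 hr, 7.67, 7.59, and 7.68 at 24 hr, and 9.37, 8.92, and 8.11 at 48 hr. *Pms2* was lower in every KI library than in every WT library at 0, 24, and 48 hr, with overlapping groups at 4 hr. The rise in WT cells of this line was 0.71 (SE 0.0707, adjusted p = 3.46e-11).

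In the checkpoint group, 3 of 6 genes were called higher in both lines at 48 hr, among them the effector kinases *Chek1* and *Chek2* but not the kinases at the head of the pathway. *Chek1* (chr9:36708482-36726658), the kinase that slows replication when it stalls, rose the most. *Chek1* measured 0.964, 0.950, and 1.12 RPKM at 0 hr, 0.419, 0.479, and 0.540 at 4 hr, 5.55, 7.77, and 6.33 at 24 hr, and 10.3, 11.2, and 12.5 at 48 hr in WT cells of the *Stat5a* line. *Chek1* in KI cells of that line measured 1.55, 1.13, and 1.26 RPKM at 0 hr, 0.720 and 0.368 at 4 hr, 4.13, 3.69, and 3.58 at 24 hr, and 6.92, 5.81, and 6.06 at 48 hr. *Chek1* was lower in every KI library than in every WT library at 24 and 48 hr and higher in every KI library than in every WT library at 0 hr, with overlapping groups at 4 hr. It rose by 3.28 (SE 0.197, adjusted p = 3.52e-17) in WT cells at 48 hr, after a level at 4 hr below that at 0 hr. *Chek1* reached 0.936, 0.739, and 0.802 RPKM at 0 hr, 0.504, 0.619, and 0.589 at 4 hr, 7.24, 7.45, and 9.85 at 24 hr, and 11.6, 12.7, and 11.9 at 48 hr in WT cells of the *Stat5b* line. *Chek1* in *Stat5b* KI cells measured 1.24, 1.495, and 1.51 RPKM at 0 hr, 0.703, 1.05, and 0.798 at 4 hr, 1.78, 2.47, and 1.53 at 24 hr, and 3.15, 4.29, and 3.26 at 48 hr. *Chek1* was lower in every KI library than in every WT library at 24 and 48 hr and higher in every KI library than in every WT library at 0 and 4 hr. The rise was 3.69 (SE 0.203, adjusted p = 2.59e-18) in WT cells of the *Stat5b* line. *Topbp1*, the activator of ATR, rose by 1.62 and 1.54, and *Chek2*, the kinase downstream of ATM, by 1.51 and 1.45. The kinase genes themselves passed at any fold only, with 0.65 and 0.44 for *Atm* and 0.48 and 0.52 for *Atr*.

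*Trp53bp1* (chr2:121194835-121296354) encodes an adaptor at broken ends that limits their resection. *Trp53bp1* measured 4.99, 4.45, and 5.06 RPKM at 0 hr, 9.82, 4.33, and 8.68 at 4 hr, 6.02, 5.99, and 6.37 at 24 hr, and 6.46, 6.75, and 6.43 at 48 hr in WT cells of the *Stat5a* line. *Trp53bp1* in KI cells of that line measured 6.10, 4.73, and 5.18 RPKM at 0 hr, 7.61 and 9.60 at 4 hr, 6.16, 6.39, and 6.34 at 24 hr, and 6.95, 6.25, and 6.75 at 48 hr. *Trp53bp1* values of KI and WT cells overlapped at all 4 times. The WT difference at 48 hr was 0.23 (SE 0.0899, adjusted p = 0.0228). *Trp53bp1* reached 5.62, 5.47, and 4.92 RPKM at 0 hr, 10.7, 9.84, and 9.44 at 4 hr, 6.79, 6.82, and 6.05 at 24 hr, and 6.18, 6.11, and 6.63 at 48 hr in WT cells of the *Stat5b* line. *Trp53bp1* in *Stat5b* KI cells measured 4.94, 4.59, and 4.83 RPKM at 0 hr, 9.38, 9.24, and 9.13 at 4 hr, 6.34, 5.99, and 6.09 at 24 hr, and 6.44, 5.89, and 5.61 at 48 hr. *Trp53bp1* was lower in every KI library than in every WT library at 4 hr, with overlapping groups at 0, 24, and 48 hr. In WT cells of the *Stat5b* line the difference was 0.07 (95% interval −0.11 to 0.24, adjusted p = 0.525), and the level at 4 hr was above that at the other 3 times in every WT library. Of its exon bases, 22.1% are also exonic in *Tubgcp4* on the opposite strand.

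All 5 genes of the last group were called higher in WT cells of both lines. *Neil3* (chr8:53586867-53639065), a glycosylase that acts on single-stranded DNA and on crosslinks, rose the most. *Neil3* measured 0.555, 0.507, and 0.615 RPKM at 0 hr, 0.714, 0.585, and 0.654 at 4 hr, 3.86, 4.88, and 2.76 at 24 hr, and 10.3, 10.3, and 9.23 at 48 hr in WT cells of the *Stat5a* line. *Neil3* in KI cells of that line measured 0.881, 0.717, and 0.505 RPKM at 0 hr, 1.24 and 0.799 at 4 hr, 2.99, 1.76, and 2.04 at 24 hr, and 9.44, 9.20, and 8.35 at 48 hr. *Neil3* was higher in every KI library than in every WT library at 4 hr, with overlapping groups at 0, 24, and 48 hr. It rose by 3.94 (SE 0.232, adjusted p = 2.01e-17) in WT cells. *Neil3* reached 0.561, 0.826, and 0.777 RPKM at 0 hr, 0.781, 0.625, and 0.725 at 4 hr, 2.995, 3.93, and 4.90 at 24 hr, and 10.4, 11.1, and 12.8 at 48 hr in WT cells of the *Stat5b* line. *Neil3* in *Stat5b* KI cells measured 1.20, 1.62, and 1.70 RPKM at 0 hr, 1.67, 2.33, and 1.963 at 4 hr, 1.31, 1.70, and 1.36 at 24 hr, and 5.26, 7.76, and 5.55 at 48 hr. *Neil3* was lower in every KI library than in every WT library at 24 and 48 hr and higher in every KI library than in every WT library at 0 and 4 hr. It rose by 3.81 (SE 0.230, adjusted p = 3.70e-17) in WT cells of the *Stat5b* line. *Polh*, the translesion polymerase eta, rose by 2.54 and 2.71, and *Ung*, which removes uracil from DNA, by 1.61 and 1.72.

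*Polq* (chr16:37011741-37095419) encodes polymerase theta, which joins ends at short homologies. *Polq* measured 0.629, 0.788, and 0.813 RPKM at 0 hr, 0.774, 0.420, and 0.740 at 4 hr, 1.89, 2.53, and 2.204 at 24 hr, and 5.44, 5.62, and 5.15 at 48 hr in WT cells of the *Stat5a* line. *Polq* in KI cells of that line measured 0.957, 0.792, and 0.715 RPKM at 0 hr, 0.819 and 0.855 at 4 hr, 1.52, 1.26, and 1.25 at 24 hr, and 3.65, 3.05, and 3.34 at 48 hr. *Polq* was lower in every KI library than in every WT library at 24 and 48 hr and higher in every KI library than in every WT library at 4 hr, with overlapping groups at 0 hr. It rose by 2.65 (SE 0.133, adjusted p = 2.11e-19) in WT cells. *Polq* reached 0.706, 0.733, and 0.879 RPKM at 0 hr, 0.733, 0.742, and 0.738 at 4 hr, 2.28, 2.61, and 2.59 at 24 hr, and 5.52, 5.51, and 5.73 at 48 hr in WT cells of the *Stat5b* line. *Polq* in *Stat5b* KI cells measured 0.953, 1.06, and 0.944 RPKM at 0 hr, 1.00, 1.03, and 1.17 at 4 hr, 0.821, 1.14, and 0.957 at 24 hr, and 1.63, 2.31, and 1.63 at 48 hr. *Polq* was lower in every KI library than in every WT library at 24 and 48 hr and higher in every KI library than in every WT library at 0 and 4 hr. It rose by 2.68 (SE 0.134, adjusted p = 1.61e-19) in WT cells of this line. *Parp1* (chr1:180568891-180600999), a sensor of strand breaks, was the most abundant of the 40 genes at both ends of the culture. *Parp1* measured 23.0, 23.7, and 24.0 RPKM at 0 hr, 29.7, 12.2, and 24.7 at 4 hr, 44.1, 45.1, and 39.9 at 24 hr, and 58.2, 62.8, and 56.0 at 48 hr in WT cells of the *Stat5a* line. *Parp1* in KI cells of that line measured 29.6, 25.2, and 28.2 RPKM at 0 hr, 36.8 and 30.6 at 4 hr, 42.5, 45.6, and 43.8 at 24 hr, and 46.5, 46.8, and 45.9 at 48 hr. *Parp1* was lower in every KI library than in every WT library at 48 hr and higher in every KI library than in every WT library at 0 and 4 hr, with overlapping groups at 24 hr. It rose by 1.12 (SE 0.0848, adjusted p = 2.32e-14) in WT cells. *Parp1* reached 24.0, 26.0, and 27.4 RPKM at 0 hr, 26.5, 27.1, and 28.5 at 4 hr, 46.5, 51.1, and 48.9 at 24 hr, and 59.7, 58.5, and 61.4 at 48 hr in WT cells of the *Stat5b* line. *Parp1* in *Stat5b* KI cells measured 28.4, 32.0, and 27.0 RPKM at 0 hr, 34.4, 35.6, and 33.1 at 4 hr, 32.7, 32.4, and 33.2 at 24 hr, and 36.5, 37.8, and 31.7 at 48 hr. *Parp1* was lower in every KI library than in every WT library at 24 and 48 hr and higher in every KI library than in every WT library at 4 hr, with overlapping groups at 0 hr. It rose by 1.04 (SE 0.0848, adjusted p = 1.61e-13) in WT cells of the *Stat5b* line.

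**Figure D2:**
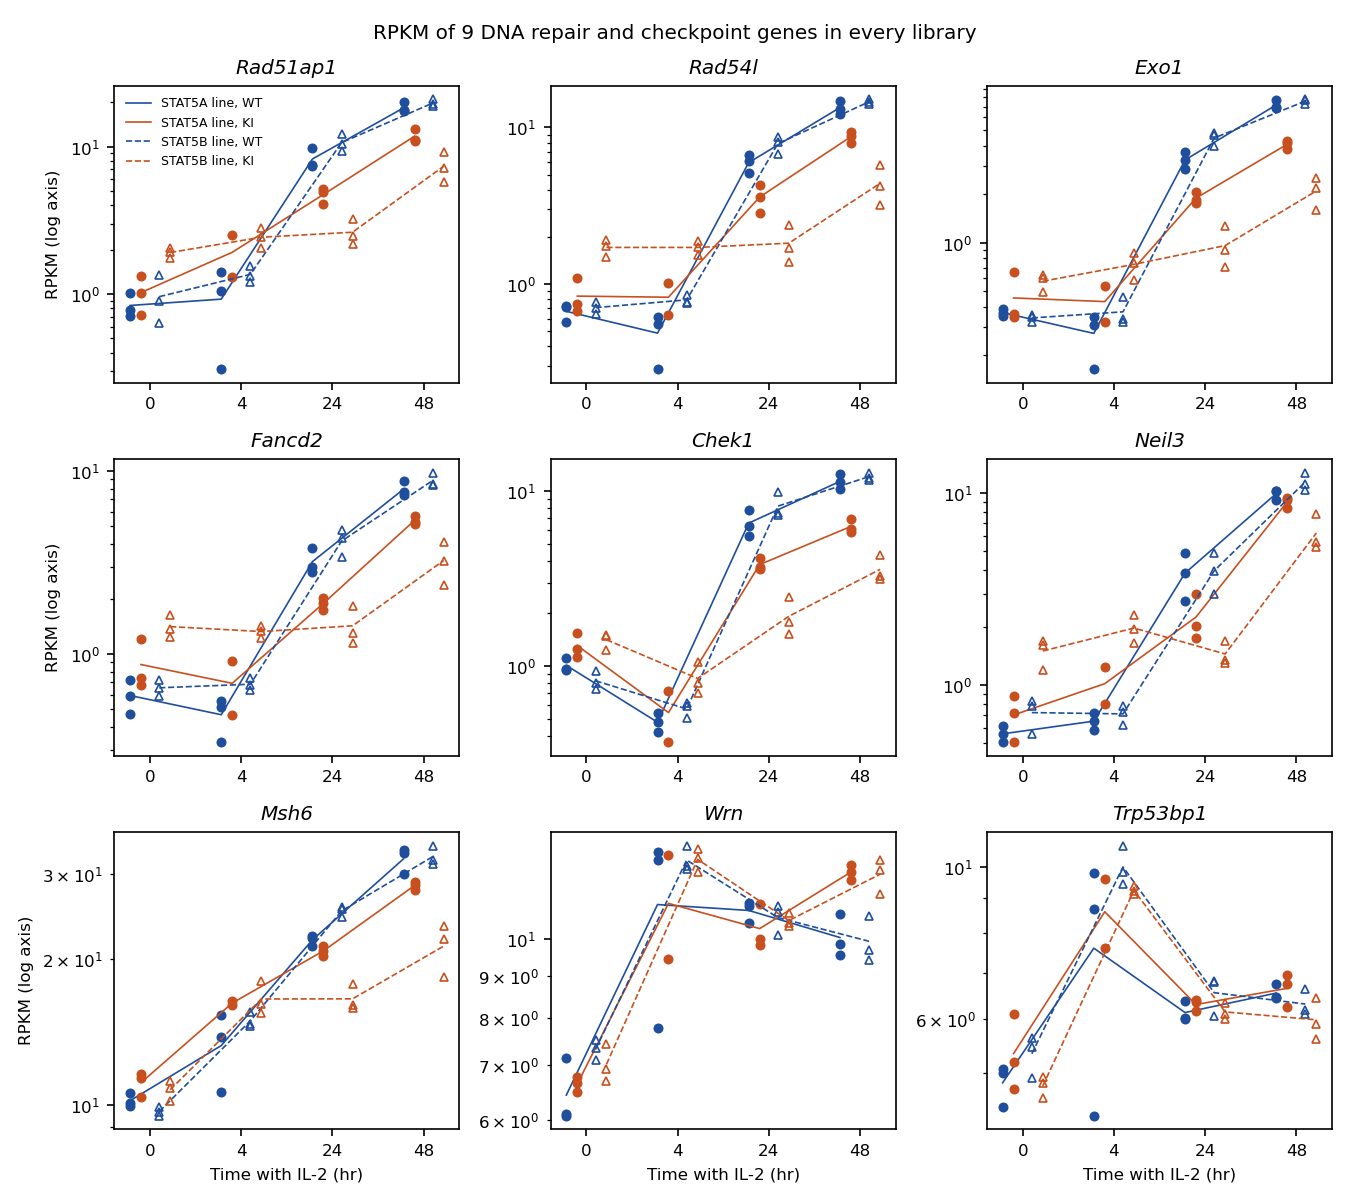
RPKM (log axis) of 9 of the genes in each library against hours with IL-2, with circles and solid lines for the *Stat5a* line, triangles and dashed lines for the *Stat5b* line, blue for WT, and orange for KI cells, and lines through the group means. At 48 hr the 3 *Stat5b* KI libraries lay below all other libraries for *Rad51ap1*, *Rad54l*, *Exo1*, *Fancd2*, *Chek1*, *Neil3*, and *Msh6*, and *Wrn* was the one gene shown with KI above WT in both lines.

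The order of the levels in WT cells at 48 hr, as a mean of both lines, ran from *Parp1* at 59.4 RPKM and *Topbp1* at 52.6 RPKM over *Msh6* at 32.4, *Ung* at 29.8, and *Polh* at 21.1 RPKM down to *Fancc* at 2.34, *Rad51c* at 2.29, and *Rad54b* at 2.15 RPKM. The spread between libraries did not separate all neighbours. *Msh6*, at 32.3 ± 1.957 and 32.6 ± 1.497 RPKM in the *Stat5a* and the *Stat5b* line, and *Ung*, at 29.3 ± 1.52 and 30.3 ± 1.32 RPKM (SD, n = 3), lay close together, as did the 3 genes at the bottom. *Rad51ap1* went from 0.899 RPKM at 0 hr to 19.0 RPKM, close to *Nbn*, which went from 7.09 to 18.9 RPKM.

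Fewer of the genes were called at the earlier times. At 4 hr, 4 genes were called higher in WT cells of the *Stat5a* line (10.0% of all genes were), 1 was called lower (11.4%), and the median log2 fold change was 0.12. In the *Stat5b* line 2 were called higher (5.83%), none lower, and the median was 0.16. At any fold, 16 rose and 7 fell in the *Stat5a* line (all genes, 29.5% and 28.9%), and 15 rose and 6 fell in the *Stat5b* line (25.1% and 24.5%). *Brca1* was called in both lines (1.14 and 1.23). *Polh* was called in the *Stat5b* line (1.09), against 0.73 in the *Stat5a* line. The genes that fell at any fold in both lines were *Chek1* (−1.05 and −0.71), *Ung* (−0.93 and −0.62), *Fanca* (−0.80 and −0.54), *Rad51b* (−0.81 and −0.80), *Xrcc2* (−0.61 and −0.89), and *Atm* (−0.44 and −0.59).

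The 4 hr counts of the *Stat5a* line rested on 1 library. *Bard1*, *Palb2*, and *Rad50*, the other genes called higher there, had log2 fold changes of 2.36, 1.13, and 1.10. Without the library of 17369112 reads they were −0.33, 0.92, and 0.73, and 1 gene, *Brca1*, was called higher and 4 lower (*Rad51b*, *Rad54b*, *Xrcc2*, and *Chek1*). *Bard1* measured 1.32, 16.3, and 1.65 RPKM in the 3 WT libraries at 4 hr, the second value from the shallow library, and 64.9 RPKM in the KI library left out of the fit. In all other groups *Bard1* was between 0.873 and 10.2 RPKM. The SE of *Bard1* on the log2 scale for KI against WT in the *Stat5b* line at 48 hr was 0.21 without the shallow library and 0.507 with it.

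By 24 hr, 23 genes were called higher in the *Stat5a* line (8.72% of all genes) and 24 in the *Stat5b* line (9.07%), with medians of 1.26 and 1.37 and none lower. The 48 hr level was the highest of the 4 time points for 37 genes in the *Stat5a* line, against 34 in the *Stat5b* line. *Wrn* and *Trp53bp1* were highest at 4 hr in both lines, and *Fance* was in the *Stat5b* line. In the *Stat5a* line *Fance* measured 6.98 RPKM at 4 hr as the mean without the shallow library, against 6.69 RPKM at 48 hr, and the count of 37 was then 36. *Atm* was highest at 24 hr in both lines, as were *Ung* and *Fancg* in the *Stat5b* line.

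The starts of the genes were searched for short motifs in RefSeq promoter sequences of GRCm38.p6, from 250 bases before to 50 bases after the annotated start, on both strands. Promoters were at hand for 32 of the 40 genes and for 27025 genes in all. A site for E2F factors, which activate genes of the S phase, was searched as TTTCCCGC, TTTCGCGC, TTTGCCGC, or TTTGGCGC and was found at 7 of the 32 genes (21.9%) and at 2.60% of all genes. The 7 were *Brca2*, *Bard1*, *Rad51c*, *Fancg*, *Msh6*, *Topbp1*, and *Chek2*. The matches of 5 of them, which lie 52 to 209 bases before the start, are shown with their surroundings, since this was the motif with the largest ratio of the shares, each read 5′ to 3′ along the gene with the match in capitals. The starts are those of the RefSeq promoter table. The annotated gene span, over all transcripts of a gene, begins further upstream, and 4 of the 5 windows, the exception being that of *Bard1*, lie inside it. None of the 5 matches lay in an exon of a curated transcript of the gene.
*Bard1*, chr1:71103163-71103192, minus strand: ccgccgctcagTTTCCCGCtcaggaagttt
*Fancg*, chr4:43010335-43010364, minus strand: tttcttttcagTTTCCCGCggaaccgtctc
*Chek2*, chr5:110839820-110839849, plus strand: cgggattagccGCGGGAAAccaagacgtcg
*Brca2*, chr5:150522442-150522471, plus strand: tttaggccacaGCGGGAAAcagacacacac
*Topbp1*, chr9:103305187-103305216, plus strand: ccgctcggttgGCGCGAAAgtcggttcccg
The matches of *Bard1* and *Fancg* are the letters TTTCCCGC, those of *Chek2* and *Brca2* are the same letters on the other strand, and that of *Topbp1* is TTTCGCGC on the other strand.

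The shares of the other motifs lay closer to, or below, those of all genes. The CCAAT box (CCAAT) was found at 17 genes (53.1%, all genes 41.1%), the cell cycle element CHR (TTTGAA) at 3 (9.38%, all genes 20.2%), the E-box (CACGTG) at 1 (3.12%, all genes 8.09%), and the GAS motif of STAT proteins (TTCNNNGAA) at 2 (6.25%, all genes 9.55%). The GAS matches were TTCACTGAA at *Rad54l*, 64 or 65 bases before its 2 annotated starts, and TTCAATGAA at *Fancl*. A match in these windows describes letters and is not a measured binding site.

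In KI cells at 48 hr, repair and checkpoint genes were lower than in WT cells, and by more in the *Stat5b* line. In the *Stat5b* line 20 of the 40 genes were called lower, where 9.81% of all genes were, and none higher, with a median log2 fold change of −0.99. DESeq2 called 20 as well, and limma on log2(RPKM + 1), a scale that understates changes of low genes, called 12. At any fold 34 genes fell (30.5% of all genes) and 1 rose. In the *Stat5a* line 0 genes were called lower by edgeR at a fold of 2 (2.43% of all genes were), and DESeq2 and limma called 0 as well. At any fold, however, 28 genes fell (22.8%) and 1 rose, with a median of −0.47. At an unadjusted p under 0.05 the numbers were 29 and 1, for which the share of all genes is not given here. Without KI replicate 1 of this line at 48 hr, 1 gene was called at a fold of 2. Counted by levels, all KI libraries lay below all WT libraries for 36 genes in the *Stat5b* line (32.1% of all genes) and for 32 in the *Stat5a* line (26.1%).

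**Figure D3:**
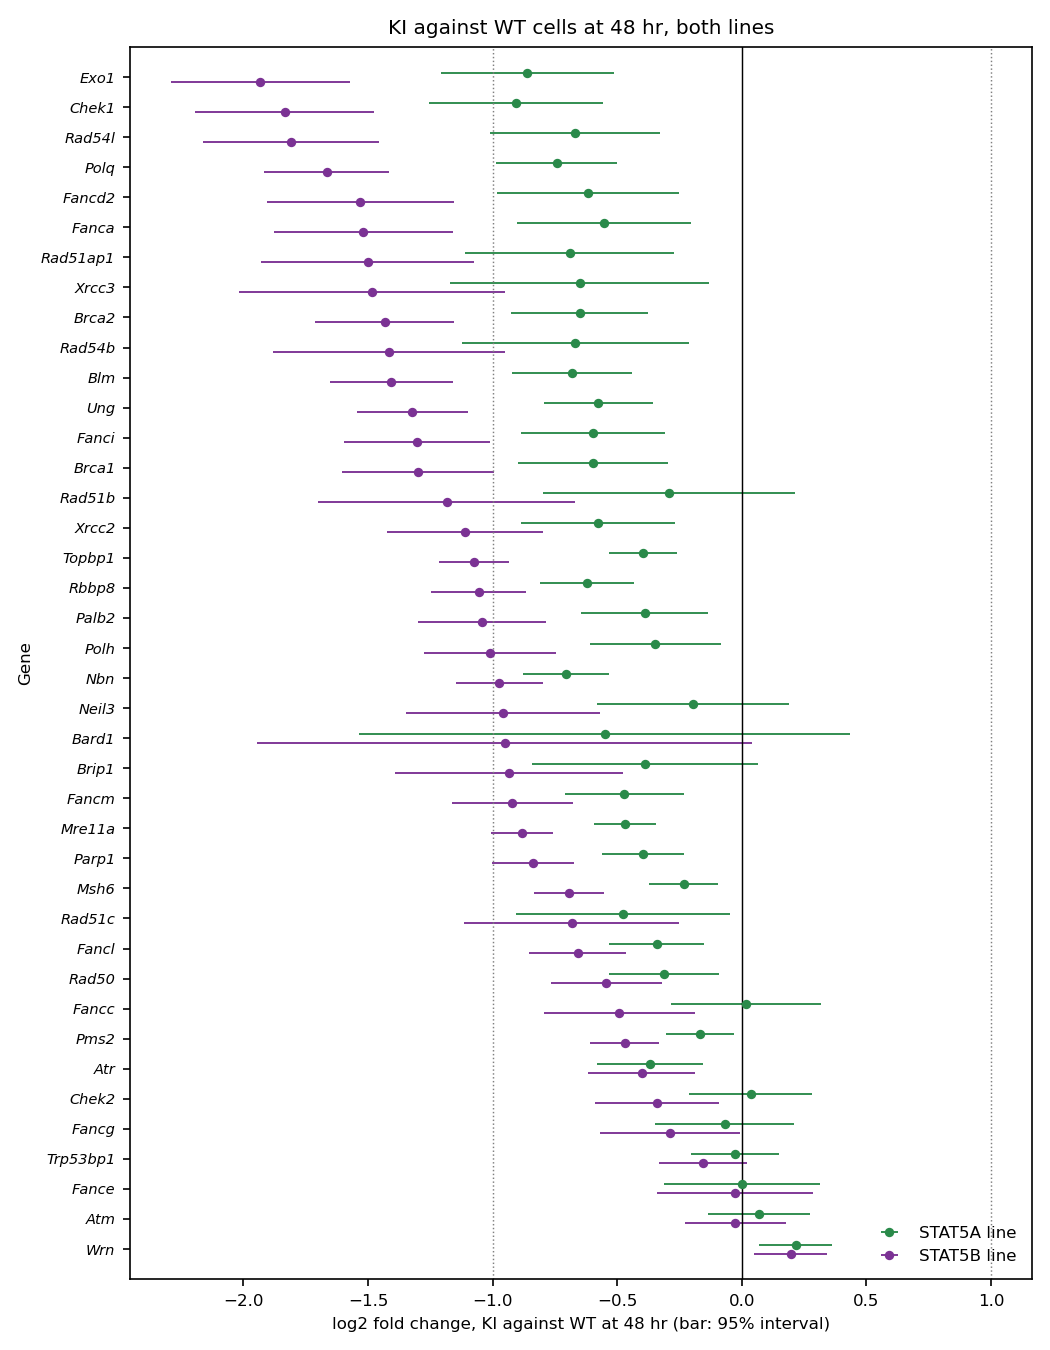
Log2 fold change of KI against WT cells at 48 hr for each of the 40 genes, with approximate 95% intervals as bars, for the *Stat5a* line (green) and the *Stat5b* line (purple), and dotted lines at a fold of 2. The *Stat5b* points reach from −1.93 for *Exo1* to 0.20 for *Wrn*, and the *Stat5a* points from −0.91 for *Chek1* to 0.22 for *Wrn*.

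The 5 largest falls in *Stat5b* KI cells at 48 hr were those of *Exo1*, −1.93 (SE 0.183, adjusted p = 1.86e-11), *Chek1*, −1.83 (SE 0.183, adjusted p = 6.51e-11), *Rad54l*, −1.81 (SE 0.180, adjusted p = 5.74e-11), *Polq*, −1.67 (SE 0.127, adjusted p = 7.91e-14), and *Fancd2*, −1.53 (SE 0.191, adjusted p = 9.75e-09). By the fitted values *Exo1* was 3.82-fold lower and *Chek1* 3.57-fold lower than in WT cells, and for each of the 5 the KI and WT libraries did not overlap. The same 5 genes in *Stat5a* KI cells fell by less than a fold of 2, with *Exo1* at −0.86 (SE 0.177, adjusted p = 1.34e-04), *Chek1* at −0.91 (SE 0.178, adjusted p = 7.35e-05), *Rad54l* at −0.67 (SE 0.174, adjusted p = 0.00184), *Polq* at −0.74 (SE 0.124, adjusted p = 6.78e-06), and *Fancd2* at −0.62 (SE 0.186, adjusted p = 0.00664).

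Homologous recombination genes made up 9 of the 20 genes called lower in the *Stat5b* line. Besides *Rad54l* they were *Rad51ap1* (−1.50), *Xrcc3* (−1.48), *Brca2* (−1.43), *Rad54b* (−1.42), *Brca1* (−1.30), *Rad51b* (−1.19), *Xrcc2* (−1.11), and *Palb2* (−1.04). *Brip1* (−0.93) and *Rad51c* (−0.68) fell under the fold threshold, and *Bard1* had −0.95 (95% interval −1.95 to 0.04, adjusted p = 0.0988), a difference that passed (adjusted p = 0.000143) without the shallow library. Of the end processing genes, *Blm* (−1.41) and *Rbbp8* (−1.06) were called with *Exo1*, and the MRN genes *Nbn* (−0.97), *Mre11a* (−0.88), and *Rad50* (−0.54) fell at any fold. In the Fanconi group *Fanca* (−1.52) and *Fanci* (−1.30) were called with *Fancd2*, and *Fancm* (−0.92), *Fancl* (−0.66), and *Fancc* (−0.49) fell at any fold. *Ung* (−1.32) and *Polh* (−1.01) were called with *Polq*, and *Topbp1* (−1.07) with *Chek1*. *Neil3* (−0.96), *Parp1* (−0.84), *Msh6* (−0.69), *Pms2* (−0.47), *Atr* (−0.40), and *Chek2* (−0.34) fell at any fold.

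In *Stat5a* KI cells the fall at any fold covered 8 of 12 homologous recombination genes, 6 of 7 end processing genes, 5 of 8 Fanconi genes, both mismatch repair genes, 3 of 6 checkpoint genes, and 4 of the last 5 genes. After *Chek1*, *Exo1*, and *Polq* the largest falls were those of *Nbn* (−0.71), *Rad51ap1* (−0.69), and *Blm* (−0.68). *Neil3* did not pass, at −0.19 (95% interval −0.58 to 0.19, adjusted p = 0.454), and neither did *Brip1*, at −0.39 (95% interval −0.84 to 0.06, adjusted p = 0.176), *Rad51b*, at −0.29 (95% interval −0.80 to 0.21, adjusted p = 0.387), or *Rad51c*, at −0.48 (95% interval −0.90 to −0.05, adjusted p = 0.0753).

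Besides *Bard1*, whose interval is wide, 4 genes passed in neither line in the fit of 47 libraries. Without the shallow library 36 genes fell at any fold in the *Stat5b* line, so *Bard1* was not the only gene gained there. The values of the 4 genes given here are those of the fit of 47 libraries. *Fance* had 0.00 (95% interval −0.31 to 0.31, adjusted p = 1.00) in the *Stat5a* line and −0.03 (95% interval −0.34 to 0.29, adjusted p = 0.888) in the *Stat5b* line. *Atm* had 0.07 (95% interval −0.13 to 0.27, adjusted p = 0.629) and −0.03 (95% interval −0.23 to 0.18, adjusted p = 0.842), *Trp53bp1* −0.03 (95% interval −0.20 to 0.15, adjusted p = 0.834) and −0.16 (95% interval −0.33 to 0.02, adjusted p = 0.1296), and *Fancg* −0.07 (95% interval −0.35 to 0.21, adjusted p = 0.737) and −0.29 (95% interval −0.57 to −0.01, adjusted p = 0.0788). Differences of a fold of 2 lie outside the intervals of these 4 genes. *Wrn* was the 1 gene higher in KI cells of both lines, by 0.22 (SE 0.0751, adjusted p = 0.0180) and 0.20 (SE 0.0752, adjusted p = 0.0226).

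**Figure D4:**
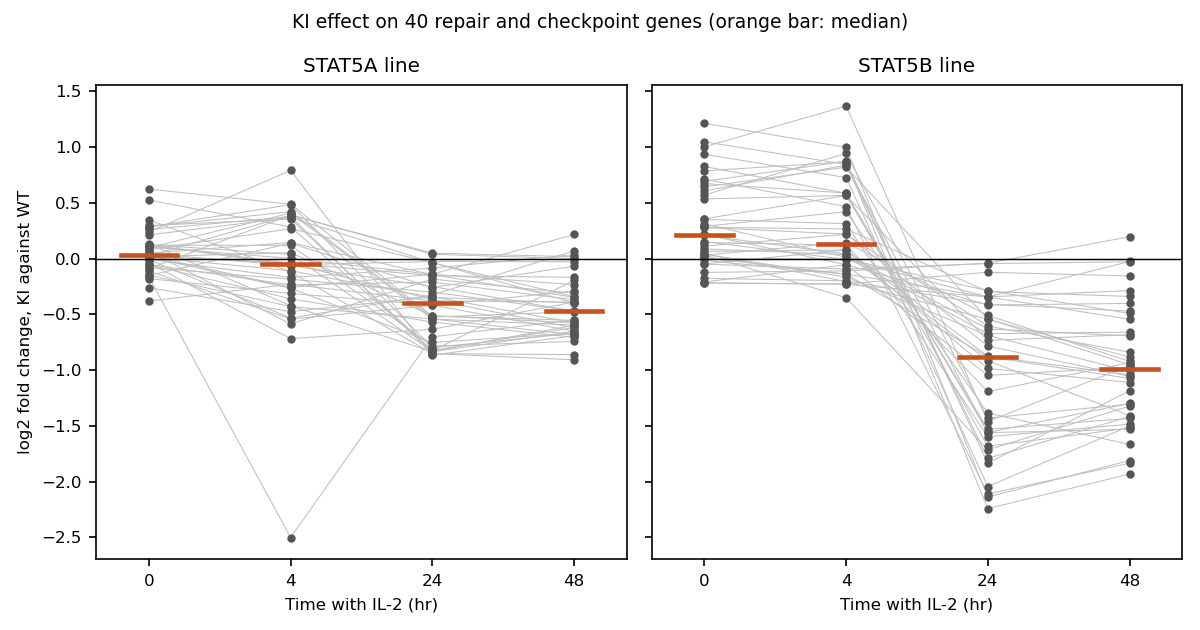
Log2 fold change of KI against WT cells at 0, 4, 24, and 48 hr in each line, with 1 point and 1 grey line for each of the 40 genes and an orange bar at their median. In the *Stat5b* line the median moves from 0.21 at 0 hr to −0.88 at 24 hr and −0.99 at 48 hr, and in the *Stat5a* line from 0.04 to −0.40 and −0.47, where the lone low point at 4 hr is *Bard1*.

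Before IL-2 no gene was called lower in KI cells of either line. At 0 hr 3 genes were called higher in KI cells of the *Stat5b* line, *Rad54l* at 1.21 (SE 0.198, adjusted p = 3.18e-05), *Fancd2* at 1.05 (SE 0.205, adjusted p = 2.66e-04), and *Neil3* at 1.00 (SE 0.226, adjusted p = 0.00124). This is a share near that of all genes (7.38%). At any fold 11 rose (13.6% of all genes) and none fell, with a median of 0.21. Without the shallow library, which belongs to neither group, 17 rose and 2 fell, *Pms2* (−0.17) and *Trp53bp1* (−0.22). The 13.6% is the share in the fit with that library, so these counts are not compared with it. The levels were low, as for *Rad54l* with 0.705, 0.646, and 0.767 RPKM in WT and 1.48, 1.90, and 1.75 RPKM in KI cells, where the groups did not overlap. The count of 3 was 0 by limma, 1 without WT replicate 1, and 1 without KI replicate 2 of this line and time. In *Stat5a* KI cells at 0 hr edgeR passed 0 genes at any fold (2 without the shallow library, *Fanca* at 0.62 and *Parp1* at 0.21, both higher), and DESeq2 and limma called 0. At an unadjusted p under 0.05, 3 were higher and 1 lower, without a share of all genes to set them against.

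At 4 hr 1 gene, *Neil3* (1.37), was called higher in *Stat5b* KI cells (9.20% of all genes), and 12 rose at any fold (14.5%). *Mre11a* (−0.21), *Pms2* (−0.20), and *Ung* (−0.35) fell at any fold, 3 of 40 against 12.8% of all genes. Without the shallow library 16 rose and 5 fell, with *Rad50* (−0.14) and *Trp53bp1* (−0.22) added to the falls. The shares of 14.5% and 12.8% are those of the fit with that library. The count of 1 was 0 by limma. With 1 library of the *Stat5b* line at 4 hr left out, the count of 1 was 5 without KI replicate 1, 3 without WT replicate 1, and 2 without WT replicate 2 or 3. In the *Stat5a* line *Bard1* was called lower at 4 hr (−2.50, 4.16% of all genes), and without the shallow WT library it had 0.19 and 0 genes were called. By 24 hr 17 genes were called lower in *Stat5b* KI cells (5.77%) and 34 fell at any fold (26.3%), with a median of −0.88, and limma called 11 lower. *Exo1* (−2.24), *Rad54l* (−2.14), *Chek1* (−2.11), and *Rad51ap1* (−2.04) were over 4-fold lower at that time. In *Stat5a* KI cells 0 were called lower at 24 hr (1.24%) by edgeR, DESeq2, or limma, and 20 fell at any fold (9.01%). At an unadjusted p under 0.05, 25 were lower, and the share of all genes at this threshold is not given here. Without WT replicate 3, or without KI replicate 1, of the *Stat5a* line at 24 hr 1 gene was called at a fold of 2.

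The response to IL-2 was also measured within KI cells. From 0 to 48 hr 26 genes were called higher in *Stat5a* KI cells (9.31% of all genes) and 13 in *Stat5b* KI cells (5.56%), with medians of 1.29 and 0.76. The count of 13 was 6 by limma. *Neil3* rose the most in both, by 3.45 and 1.85, followed by *Rad51ap1*, by 3.30 and 1.75. *Polh* rose by 2.14 and 1.66. Whether KI and WT cells of a line differed in their response to IL-2 was tested as an interaction. In the *Stat5b* line 24 genes had a response smaller by at least a fold of 2 in KI cells (11.1% of all genes), 32 at any fold (25.6%), and the median was −1.15. *Rad54l* had the largest difference, −3.02 (SE 0.267, adjusted p = 9.85e-12), followed by *Exo1* at −2.62, *Fancd2* at −2.58, and *Chek1* at −2.55. *Wrn* had the 1 larger response in KI cells, 0.32 (SE 0.107, adjusted p = 0.0123). In the *Stat5a* line 4 genes passed at a fold of 2 (3.09%), *Chek1* (−1.25), *Fanca* (−1.18), *Fancd2* (−1.14), and *Exo1* (−1.12), 20 passed at any fold (16.2%), and the median was −0.45. The count of 4 was 0 by limma, 2 without KI replicate 1 at 0 hr in this line, and 4 to 6 without any other library. These differences share the 0 hr and 48 hr libraries with the comparisons of KI and WT cells and hold the higher 0 hr values of the *Stat5b* KI cells.

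The KI effects at 48 hr were compared between the lines, as the effect in the *Stat5b* line minus that in the *Stat5a* line. The difference was below 0 for 40 of 40 genes, with a median of −0.54. It passed at any fold for 19 genes (7.83% of all genes) and at a fold of 2 for 2 (0.514%), *Rad54l* at −1.14 (SE 0.247, adjusted p = 0.00211) and *Exo1* at −1.07 (SE 0.250, adjusted p = 0.00420). *Rad54l* at 48 hr measured 13.2, 14.7, and 12.3 RPKM in WT and 9.30, 8.86, and 7.99 RPKM in KI cells of the *Stat5a* line, and 14.6, 14.1, and 15.1 and 4.201, 5.78, and 3.19 RPKM in those of the *Stat5b* line. The WT libraries of the lines overlapped, and the KI libraries of the *Stat5b* line lay below those of the *Stat5a* line. *Fanca* (−0.97), *Chek1* (−0.93), *Polq* (−0.92), and *Fancd2* (−0.91) passed under the fold threshold. Without the shallow library, which belongs to none of these groups, 28 genes passed at any fold and 2 at a fold of 2. The shares of 7.83% and 0.514% are those of the fit with that library. The count at a fold of 2 was 0 by limma on log2(RPKM + 1) and 1 with all 48 libraries. It was 0 with *Stat5b* KI replicate 3 at 48 hr left out and 6 with replicate 2 left out, and replicate 2 held the highest KI value of *Rad54l*, *Exo1*, *Chek1*, *Polq*, and *Fancd2* there.

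Other genes of the same pathways were described by counts, from 8 lists of 103 further genes. At 48 hr in WT cells 35 and 37 of the 103 were called higher in the *Stat5a* and the *Stat5b* line (14.3% and 14.6% of all genes), and 3 were called lower in both (22.3% and 20.7% of all genes), with medians of 0.59 and 0.60. In KI against WT cells at 48 hr 21 were called lower (9.81% of all genes) and 3 higher (16.5%) in the *Stat5b* line. For the *Stat5a* line 2 were called lower, a share near that of all genes (2.43%), and 0 higher. The lists differed. Of 20 other genes of homologous recombination and the Fanconi pathway, 11 and 12 were called higher in WT cells. *Rad51d* had the lowest values, −0.12 and −0.43, of which the second passed at any fold. Of 21 other checkpoint genes, 10 were called higher in each line, with *Clspn*, the adaptor through which ATR reaches CHEK1, at 4.46 and 4.25. *Gadd45a*, a stress-induced gene, fell by 4.15 and 3.83 on the log2 scale. Of 19 other base excision genes, 6 and 9 were called higher, with the ligase gene *Lig1* at 3.03 and 3.05, while the glycosylase gene *Neil1* fell by 1.40 and 1.57 on the log2 scale.

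Non-homologous end joining, which joins ends without a template, had smaller medians. Of its 10 genes 2 were called higher in each line, where 14.3% and 14.6% of all genes were, the medians were 0.22 and 0.07, and the extremes were *Xrcc6* (1.59 and 1.46), a subunit of Ku, and *Polm* (−0.43 and −0.52). In nucleotide excision repair 3 of 19 genes were called higher in each line, a share near that of all genes. The values lay between *Gtf2h4* (1.76 and 1.82), a subunit of TFIIH, and *Ercc5* (−0.63 and −0.71), an endonuclease gene. The remaining lists were short. *Rad18*, a ubiquitin ligase of translesion synthesis, had 1.93 and 1.87, and the polymerase gene *Poli* 0.07 and −0.34. *Pms1* and *Msh3*, of mismatch repair, had 0.89 and 0.91 and 0.06 and 0.04. *Mgmt* (0.45 and 0.38) and *Alkbh2* (0.17 and 0.26), which reverse base damage directly, did not pass.

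The genes of these lists named for their response to IL-2 are given next in KI against WT cells. Both comparisons use the WT libraries at 48 hr, with opposite sign, so nothing is read from their directions. In the *Stat5b* line at 48 hr *Clspn* (−1.52), *Lig1* (−1.46), and *Gtf2h4* (−1.18) were called lower in KI cells and *Gadd45a* (1.62) higher. *Mgmt* was also called lower (−1.11). *Xrcc6* (−0.71), *Rad18* (−0.94), and *Pms1* (−0.53) fell at any fold, and *Neil1* (0.75), *Rad51d* (0.46), *Ercc5* (0.42), and *Polm* (0.23) rose at any fold. The 2 of the 103 genes called lower in *Stat5a* KI cells, chosen after their values were seen, were *Cdkn1a*, the cell cycle inhibitor that p53 induces (−1.33 and −1.79), and *Gadd45g* (−2.02 and −2.81).

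**Figure D5:**
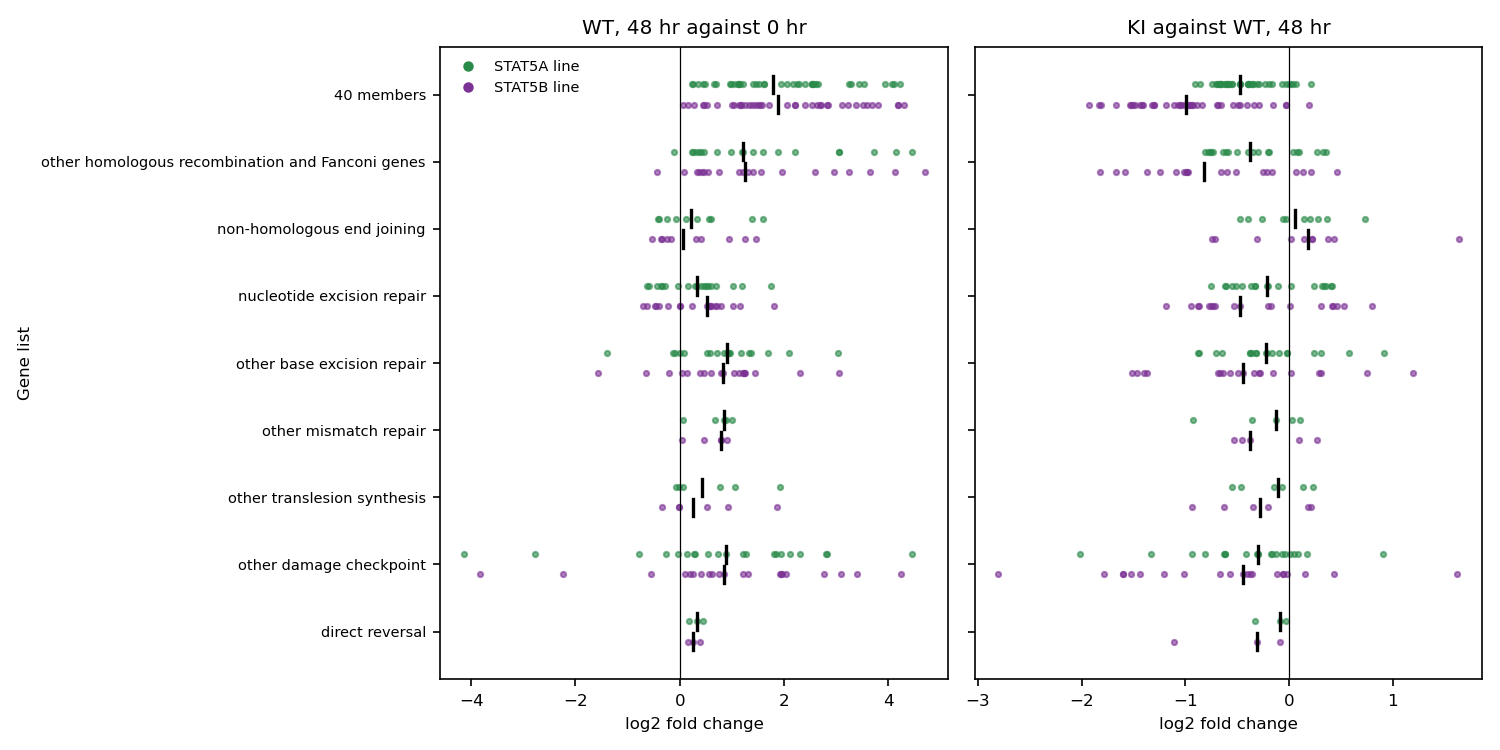
Log2 fold changes of the 40 genes and of 8 lists of other repair and checkpoint genes (rows), for WT cells at 48 hr against 0 hr (left) and KI against WT cells at 48 hr (right), with 1 point per gene, green for the *Stat5a* line, purple for the *Stat5b* line, and a black bar at the median. The 40 genes have medians of 1.78 and 1.89 on the left and −0.47 and −0.99 on the right, and non-homologous end joining has 0.22 and 0.07 on the left.

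Genes of proliferation and markers of other cells moved with these comparisons, and in bulk RNA fewer cells of a type and less RNA per cell cannot be told apart. The median log2 fold change of the 16 listed proliferation genes was 3.23 and 3.36 in WT cells at 48 hr in the *Stat5a* and the *Stat5b* line, and −0.68 and −1.54 in KI against WT cells. Their summed level at 48 hr, with *Pcna* the most abundant, was 1765 to 1956 RPKM in WT and 1115 to 1276 RPKM in KI cells of the *Stat5a* line, and 1969 to 2083 RPKM in WT and 627.7 to 899.6 RPKM in KI cells of the *Stat5b* line. At 0 hr 7 of the 16 were called higher in *Stat5b* KI cells (7.38% of all genes), with a median of 0.67. The part of cell division in the values of the repair genes was not tested.

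At 48 hr the marker sums of B, myeloid, erythroid, CD4 T, and CD8+ T cells were higher in KI than in WT cells of both lines, and those of NK cells were lower, with no overlap of the groups. For B cells (7 of 8 listed genes found, *Cd79a* the most abundant) the sum at 48 hr was 13.1 to 38.7 RPKM in WT and 97.9 to 117.7 RPKM in KI cells of the *Stat5a* line, and 11.1 to 13.5 and 120.5 to 126.3 RPKM in the *Stat5b* line. Myeloid markers (9 of 10 found, *Lyz2*) summed to 3.13 to 7.75 and 23.7 to 68.3 RPKM in the *Stat5a* line and to 3.23 to 4.56 and 65.1 to 103.9 RPKM in the *Stat5b* line. Erythroid markers (6 of 6, *Hbb-bs*) summed to 6.40 to 8.02 and 17.9 to 22.5 RPKM in the *Stat5a* line and to 4.71 to 8.27 and 110.8 to 206.1 RPKM in the *Stat5b* line. CD4 T cell markers (4 of 4, *Cd4*) summed to 4.55 to 5.37 and 12.6 to 13.3 RPKM in the *Stat5a* line and to 3.40 to 4.01 and 17.2 to 17.7 RPKM in the *Stat5b* line. NK cell markers (5 of 5, *Eomes*) were lower in KI cells, with 71.2 to 89.1 and 45.0 to 46.9 RPKM and 71.4 to 77.6 and 39.8 to 57.7 RPKM. This sum does not measure NK cells alone. The study reports EOMES protein in CD8+ T cells, induced more by IL-2 in WT than in *Stat5a* KI cells. In WT cells of the *Stat5a* line the mean sum was 20.9 RPKM at 0 hr and 80.4 RPKM at 48 hr. The CD8+ T cell sums were 1062 to 1184 RPKM in WT and 1505 to 1661 RPKM in KI cells of the *Stat5a* line, and 1030 to 1062 and 1498 to 1667 RPKM in the *Stat5b* line. For the *Stat5b* line at 0 hr, WT and KI sums were 53.9 to 61.1 and 215.5 to 221.9 RPKM for B cells, 33.5 to 42.3 and 127.2 to 185.0 RPKM for myeloid cells, and 37.9 to 116.9 and 390.7 to 969.4 RPKM for erythroid cells. The part of these cells in the values of the repair genes was not tested.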

How the data were processed

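Libraries were made with an mRNA kit from 100 ng of RNA of splenic CD8+ T cells, which had been purified with an isolation kit, and sequenced as 50 bp single-end reads. The authors aligned reads to mm10 with TopHat, kept those with a unique position, counted them on RefSeq exons, and deposited, for each library, a read count and an RPKM value per RefSeq transcript. The submitters' processing notes name TopHat2 2.0.11, Bowtie2 2.2.6, SAMtools 0.1.8, bedtools 2.25.0, and edgeR. The counting program and its use of strand are not given in the sources used here, and whether mice were pooled for these libraries is not stated. ChIP-seq and proteome data of the study were not analysed here.

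Of 31682 transcripts the longest per symbol was kept (23992 symbols). Groups came from the GEO labels. The counts of 47 libraries (17369112 to 60200653 reads) in 16 groups were fitted together in edgeR 4.0.16 (R 4.3.3) with TMM scaling, filterByExpr at a minimum count of 10, the quasi-likelihood test, and Benjamini-Hochberg adjustment over 15566 genes. Intervals of 95% were taken as the estimate and its SE under a normal approximation. Genes described in every library were the members with the largest and the smallest rise in WT cells at 48 hr within each role, the 5 largest falls in *Stat5b* KI cells at 48 hr, and those called in the difference between the lines. In each list of other pathway genes the largest rise and the lowest value were named, except for a value that is not reported here. The members and lists were chosen with earlier results of these data known. Alternatives were DESeq2 1.42.0, its size factors, limma 3.58.1 on log2(RPKM + 1) for genes of at least 1 RPKM in 3 libraries, no low-count filter, all 48 libraries, fits restricted to the groups in a comparison, the transcript with the highest mean count, a replicate block, each library left out in turn, and, added after seeing the data, a fit of 46 libraries. The code was tested on simulated data. Samples with the same replicate number were checked for deviations in common. All 3 correlations passed 0.1 for the WT response of the *Stat5a* line at 24 hr (0.206, 0.273, and 0.419) and 48 hr (0.166, 0.117, and 0.192), and in no other comparison. Promoter sequences and exon positions were those of RefSeq for GRCm38.p6.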

Additional observations from a re-analysis of the deposited data

Results flagged for a closer look

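The effect of the KI alleles at 48 hr differed between the lines by a test of the difference itself, the effect in the *Stat5b* line minus that in the *Stat5a* line. On the log2 scale the difference was −1.14 for *Rad54l* and −1.07 for *Exo1*. Without the fold threshold 19 of the 40 genes passed (7.83% of all genes), each with the lower log2 fold change in the *Stat5b* line. At a fold of 2 the difference was called for 0 genes by limma on log2(RPKM + 1) and for 1 with all 48 libraries, and for 0 to 6 with 1 library left out. The response to IL-2 over 48 hr also differed between KI and WT cells by the interaction term. It was smaller in KI cells by a fold of 2 or more for 4 genes in the *Stat5a* line (3.09% of all genes). In the *Stat5b* line it was so for 24 genes (11.1%). The count of 4 was 0 by limma and 2 without KI replicate 1 of the *Stat5a* line at 0 hr.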

How the results depend on the processing

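The direction of the median over the 40 genes at 24 and 48 hr, for IL-2 in WT cells and for KI against WT cells, was the same under every alternative run. The limma fit on log2(RPKM + 1), a scale that understates changes of low genes, gave smaller medians, of 0.986 and 1.499 for the 24 and 48 hr responses of *Stat5a* line WT cells, 1.06 and 1.62 in those of the *Stat5b* line, −0.245 and −0.338 (*Stat5a*) and −0.667 and −0.791 (*Stat5b*) for KI against WT cells at these times, 1.17 and 0.643 for the response of KI cells, −0.949 for the *Stat5b* interaction, and −0.420 for the difference between the lines. It called 0 genes (*Stat5a*) and 1 gene (*Stat5b*) at 4 hr in WT cells, 0 for KI against WT cells at 4 hr in both lines and at 0 hr in the *Stat5b* line, 11 and 12 at 24 and 48 hr in the *Stat5b* line, 6 for the response of *Stat5b* KI cells, 0 for the *Stat5a* interaction, and 0 for the difference between the lines. It also moved the median of all genes in WT cells at 48 hr to 0.240 and 0.185. With all 48 libraries 3 genes were called for the 4 hr response of *Stat5a* line WT cells, 5 for *Stat5a* KI against WT cells at 4 hr (median 0.169, against 0.174 in limma), 2 for the *Stat5b* line at 4 hr, and 1 for the difference between the lines. A fit of only the groups compared gave 3, 0, and 2 for the first 3 of these. The 46-library fit gave 0 for *Stat5a* KI cells at 4 hr. At any fold this fit passed more genes, with 28 and 31 lower in *Stat5a* KI cells at 24 and 48 hr and 37 and 36 lower in *Stat5b* KI cells, 16 higher and 5 lower in the latter at 4 hr, and 23 and 35 smaller responses in the interactions. DESeq2, its size factors, no low-count filter, and the transcript with the highest mean count each gave 2 for the *Stat5b* line at 4 hr.

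The replicate block changed 1 count, that of the response of *Stat5b* KI cells, from 13 to 14, and no other, including the 23 and 31 genes called where the numbers paired the samples. Leaving out 1 library at a time gave 22 to 24 and 31 to 33 called genes for the 24 and 48 hr responses of *Stat5a* line WT cells, 25 to 28 and 32 to 33 in those of the *Stat5b* line, and 5 and 2 to 3 at 4 hr. For KI against WT cells it gave 0, 0 to 3, 0 to 1, and 0 to 1 at 0, 4, 24, and 48 hr in the *Stat5a* line and 1 to 4, 1 to 5, 16 to 19, and 19 to 24 in the *Stat5b* line. It gave 24 to 26 and 9 to 15 for the response of KI cells, 2 to 6 and 23 to 28 for the interactions, and 0 to 6 for the difference between the lines.

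Signs of single genes were compared across these alternatives for the 48 hr comparisons of WT cells over time and of KI against WT cells. In KI against WT cells the sign changed for genes close to 0, none of them called, and the cause was not tested. At 4 hr *Bard1*, called in the *Stat5a* line, changed sign in WT cells over time and in KI against WT cells without the shallow library, with −0.33 and 0.19. In the *Stat5a* line, with all 48 libraries, DESeq2 size factors, DESeq2, no filter, and the transcript with the highest count, in this order, *Fancc* had −0.0358, −0.0222, −0.0217, −0.0362, and −0.0738, *Fance* −0.0527, −0.0381, −0.0381, −0.0532, and −0.0483, and *Chek2* −0.0169, −0.00382, −0.00319, −0.0174, and −0.0127. limma gave 0.0191 for *Trp53bp1* there, and 0.0421 for *Fance* and 0.0495 for *Atm* in the *Stat5b* line. With 1 library left out, *Fancc* ranged from −0.0730 to 0.0423, *Fance* from −0.0735 to 0.0172, *Chek2* from −0.109 to 0.0776, and *Atm* from −0.0431 to 0.162 in the *Stat5a* line, and *Atm* from −0.100 to 0.0111 in the *Stat5b* line. With 3 libraries per group, differences within these errors were not detectable.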
